A study of Arabidopsis thaliana with 12 samples.

Results

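NADP-malate dehydrogenase (AT5G58330) is the chloroplast enzyme that uses NADPH to reduce oxaloacetate to malate. It is read here by 1 of the 3439 probes of an array, the 1 probe that the platform annotation assigns to this gene alone. No other probe of the array is assigned to AT5G58330, also not among those assigned to several genes. The gene was chosen because its level differed between the groups described here, so its levels, ranks and differences are a description and carry no test. In the reference gene table the neighbouring gene AT5G58320 overlaps AT5G58330. AT5G58320 has no probe of its own, and whether the probe reads RNA of that gene as well was not tested.

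The enzyme is the first step of the malate valve. Malate made in the stroma leaves the chloroplast through a dicarboxylate transporter in exchange for oxaloacetate, and its oxidation elsewhere in the cell gives back the reducing power. The enzyme is inactive in the dark and is switched on by the ferredoxin-thioredoxin system, which passes electrons from photosystem I to disulfide bridges of the protein, so its activity can follow the light without a change in the amount of its transcript. The valve is known for draining surplus NADPH when light absorption outruns carbon fixation.

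The recovery group consists of 6 samples of wild-type *Arabidopsis thaliana* plants, ecotype Columbia 0, that spent 1 h at 1000 µE before going back to 80 µE. The control group consists of 6 samples of wild-type Columbia 0 plants kept at their growth light of 80 µE. Titles and descriptions put the recovery at 2 h but source names at 1 h, which was not resolved. Titles give 0 h for the control samples, so light and time of day may both differ between the groups and cannot be told apart. The labels name no tissue, and with total RNA of many cells a change in the share of a cell type and a change of RNA per cell cannot be told apart.

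Each sample gave 1 linear intensity per probe on a scale from 0 to 100, with no unit stated. Column medians ran from 0.196 to 0.458 in recovery samples and from 0.1996 to 0.284 in control samples, and the number of probes listed at 0 ran from 171 to 383. Within a group, the samples numbered 1 and 2, 3 and 4, and 5 and 6 form pairs of close likeness, with correlations of 0.853 to 0.942 on the log2 scale within pairs and 0.683 to 0.824 between them. No label says which samples came from separate plants, so the spread between samples may in part be technical. The number of arrays limits the precision.

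NADP-malate dehydrogenase was brighter in every recovery sample than in any control sample. In recovery samples 1 to 6 the deposited intensity was 1.68, 3.48, 1.60, 1.49, 3.59 and 4.00. In control samples 1 to 6 it was 0.432, 0.861, 0.390, 0.404, 0.308 and 0.309. Recovery samples 2, 5 and 6 were high and recovery samples 1, 3 and 4 low, while among controls sample 2 alone stood high. The mean was 2.64 ± 1.17 in recovery samples and 0.450 ± 0.207 in control samples (SD, n = 6 each), a ratio of 5.86. None of the 12 values was at 0, and no probe of the array reached 100 in any of the 12 samples. The lowest recovery value, that of sample 4, was 1.74 times the highest control value, that of sample 2.

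**Figure D1:**
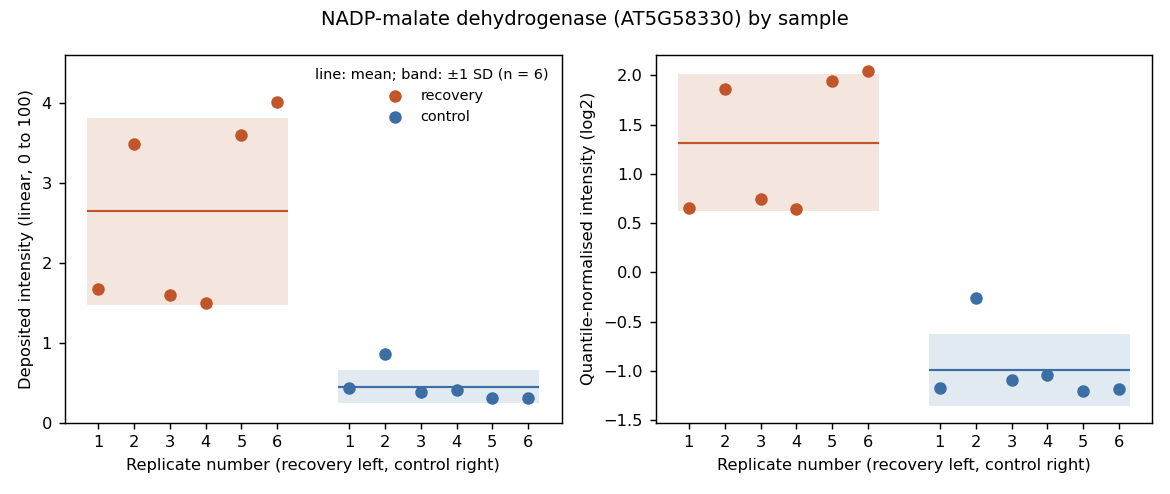
Intensity of the AT5G58330 probe in the 6 recovery samples (left in each panel) and the 6 control samples (right), as deposited on a linear axis and after quantile normalisation on a log2 axis; lines are group means and bands ±1 SD. The recovery values lie between 1.49 and 4.00 and the control values between 0.308 and 0.861, with control sample 2 the highest control.

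Because the recovery columns 1, 2, 5 and 6 had higher medians than all others, the values were also read relative to their own sample. Divided by the column median, the intensity in recovery samples 1 to 6 was 3.66, 7.78, 8.12, 7.64, 8.42 and 9.35. In control samples 1 to 6 it was 1.52, 3.18, 1.80, 1.91, 1.54 and 1.53. On this scale the groups came closest in recovery sample 1 and control sample 2, with the lowest recovery value at 1.15 times the highest control value. After quantile normalisation, which gives all 12 columns the same distribution, the log2 intensity in recovery samples 1 to 6 was 0.65, 1.86, 0.75, 0.65, 1.94 and 2.04. In control samples 1 to 6 it was -1.18, -0.25, -1.09, -1.04, -1.20 and -1.18. The groups did not overlap on any of these scales.

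The group means on the log2 scale were 1.32 ± 0.70 in recovery samples and -0.99 ± 0.37 in control samples (SD, n = 6 each). The difference, recovery minus control, was 2.31 with a standard error of 0.32, which is 4.94-fold. That standard error treats the 6 samples of a group as independent, although they form pairs of close likeness, and it may be too small. Of all 3438 features, 1.69% had every recovery value above every control value. Since the gene was chosen on this contrast, that share is given only as a background. The pooled SD of the gene within groups was 0.56, against a median of 0.75 over all features.

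The rank of the probe within a sample does not depend on any scaling of whole columns. Counted from the brightest, the probe held rank 297, 116, 277, 299, 110 and 102 of 3439 in recovery samples 1 to 6. It held rank 1229, 616, 1158, 1112, 1249 and 1232 in control samples 1 to 6. It was thus among the brightest 2.97% to 8.69% of probes in recovery samples and among the brightest 17.9% to 36.3% in control samples. A rank here places the probe's signal and not the abundance of the transcript, since probes differ in length and binding.

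**Figure D2:**
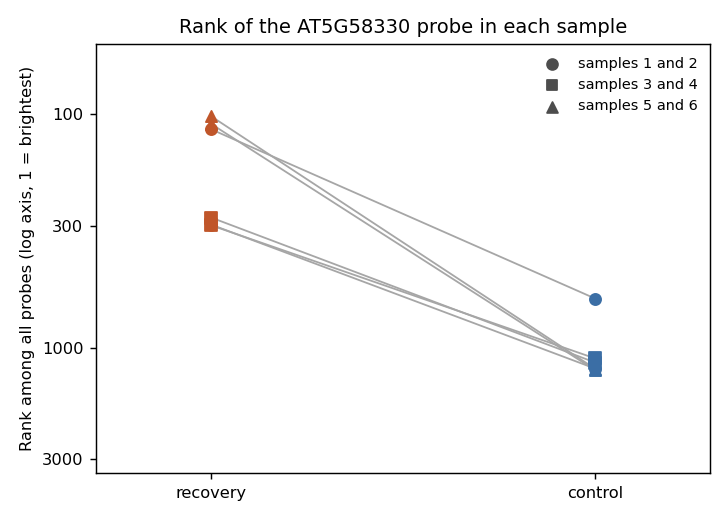
Rank of the AT5G58330 probe among 3439 probes on a log axis, with rank 1 the brightest at the top; grey lines join the recovery sample and the control sample of the same replicate number, and marker shapes give the pair of samples. Ranks run from 102 to 299 in recovery samples and from 616 to 1249 in control samples, and all 6 lines run the same way.

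Read by replicate number, the log2 difference between the recovery and the control sample was 1.83, 2.12, 1.84, 1.68, 3.14 and 3.22 for numbers 1 to 6. The deposited values gave ratios of 3.88, 4.04, 4.11, 3.70, 11.7 and 12.9 in the same order. Numbers 1 to 4 thus lay close together on the deposited scale, and numbers 5 and 6 stood well above them. The deposited scale is not level between numbers. On it the median log2 difference of all features was 0.53, 0.52, -0.10, -0.13, 0.88 and 0.85 for numbers 1 to 6. With values divided by the column medians, numbers 3 and 4 lay well above numbers 1 and 2. The closeness of numbers 1 to 4 therefore depends on the scale. Of all features, 8.03% were higher in recovery for all 6 numbers and 0.349%, or 12 features, had a log2 difference of at least 1 for every number. Among those 12, 3 were single genes, AT5G58330, CCL (AT3G26740) and AT3G13150, whose smallest differences over the 6 numbers were 1.68, 1.15 and 1.27.

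Averaged by pair, samples 1 and 2 gave a log2 difference of 1.98 (3.93-fold). Samples 3 and 4 gave 1.76 (3.39-fold). Samples 5 and 6 gave 3.18 (9.06-fold). On the log2 scale recovery samples 5 and 6 lay at 1.94 and 2.04, next to recovery sample 2 at 1.86, and control samples 5 and 6 at -1.20 and -1.18, next to control sample 1 at -1.18. Without samples 5 and 6 of both groups the difference was 1.87.

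The order of the gene among all features depended on the pair, and so did the spread over features. In samples 1 and 2 the difference ranked 38 of 3438 and in samples 5 and 6 it ranked 9. In samples 3 and 4 it ranked 338, with 9.80% of features above it. The SD of the differences over all features was 1.28 in that pair, against 0.85 in samples 1 and 2 and 1.05 in samples 5 and 6. Over all 12 samples the gene ranked 3 of 3438 and 1 of the 691 features assigned to a single gene. This order holds for the floor used here. With the floor at the 1st percentile, where dim probes gain larger differences, the log2 difference of the gene was still 2.31 but ranked 113 of all features and 30 among single genes. With 1 sample left out it ranked 2 to 7 of all features and 1 or 2 among single genes. Without samples 1 and 2, 3 and 4, or 5 and 6 of both groups it ranked 10, 11 and 48 of all features.

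**Figure D3:**
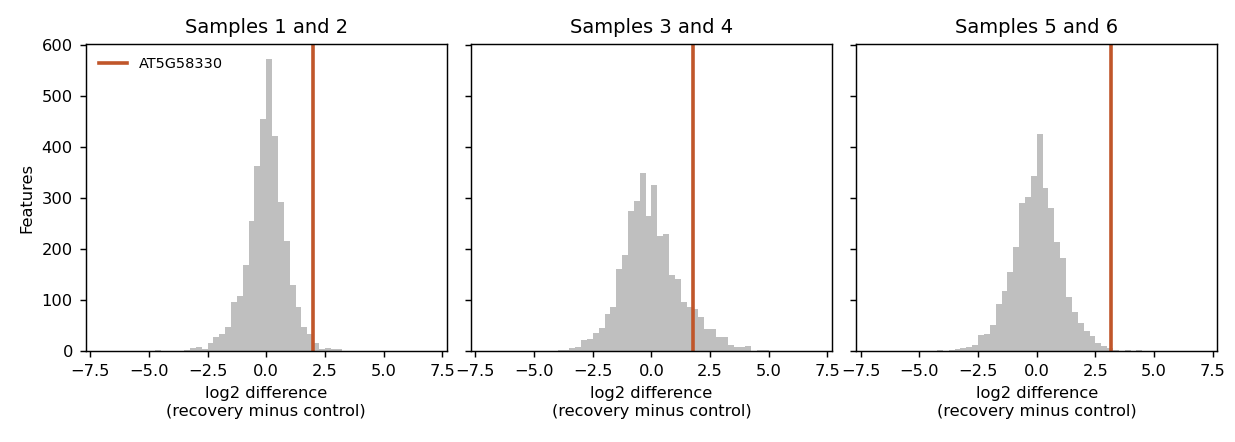
Distribution of the log2 difference, recovery minus control, over 3438 features in each pair of samples, with the vertical line at AT5G58330. The line stands at 1.98, 1.76 and 3.18, and the distribution is widest in samples 3 and 4, where 337 features lie above the gene.

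At the floor used here, the 2 features ranked above it had no single gene name. The next below was AT4G31930, with a log2 difference of 2.27. Its deposited intensity ran from 0.828 to 1.95 in recovery samples, against 0.533 to 1.13 in control samples 1, 2, 5 and 6 and values listed at 0 in control samples 3 and 4, so the size of that difference is set by the floor and was 3.79 with the floor at the 1st percentile. By pair its log2 differences were 0.60, 5.06 and 1.15. AT5G58330 had no value at the floor.

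Within pairs the gene was steady in samples 3 and 4 and in samples 5 and 6 and not in samples 1 and 2. The deposited value of recovery sample 2 was 2.08 times that of recovery sample 1, and that of control sample 2 was 1.99 times that of control sample 1. The ratio of sample 4 to sample 3 was 0.933 in recovery and 1.04 in control, and that of sample 6 to sample 5 was 1.11 in recovery and 1.01 in control. The doubling between samples 1 and 2 occurred in both groups and left the difference between the groups nearly as it was, 1.83 for number 1 and 2.12 for number 2. On the log2 scale the gene's step from sample 1 to sample 2 was 1.21 in recovery and 0.92 in control. Of all features, 3.78% had a step of at least the smaller of these, 0.92, in both groups.

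The probes with the next numbers on the array showed the same step. The probe numbered 1 below, which is assigned to AT3G59980, had 6.79 times the intensity in recovery sample 2 as in recovery sample 1, and 4.17 times in control sample 2 as in control sample 1. The probe numbered 1 above, which has no single gene name, had 4.27 times in recovery and 6.55 times in control. The probe numbered 2 above had 1.61 times in recovery and 2.95 times in control. The probes numbered 1 below and 1 above were dim in samples numbered 1. That of AT3G59980 had 0.0800 in recovery and 0.0643 in control. The probe numbered 1 above had 0.0832 in recovery and 0.0238 in control, and this control value was at the floor after normalisation. The probes numbered 1 below and 1 above did not share the difference between the groups. Their log2 differences, recovery minus control, were -0.19 and -0.62, and that of the probe numbered 2 above was 0.51.

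After each group's mean was removed, AT3G59980 correlated with AT5G58330 at 0.80 over the 12 samples, the 2nd highest of 3416 features, and the probe numbered 1 above at 0.64. Over all probes, the median of such correlations was 0.198 between neighbouring numbers, 0.066 at a distance of 10 and -0.016 at a distance of 100. These correlations describe 12 shared samples and carry no test. The sources used here do not say how probe numbers relate to positions on the array. The part of nearby spots in the values of samples numbered 2 was not tested. Without the samples numbered 2 of both groups, the log2 difference of AT5G58330 was 2.34.

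**Figure D4:**
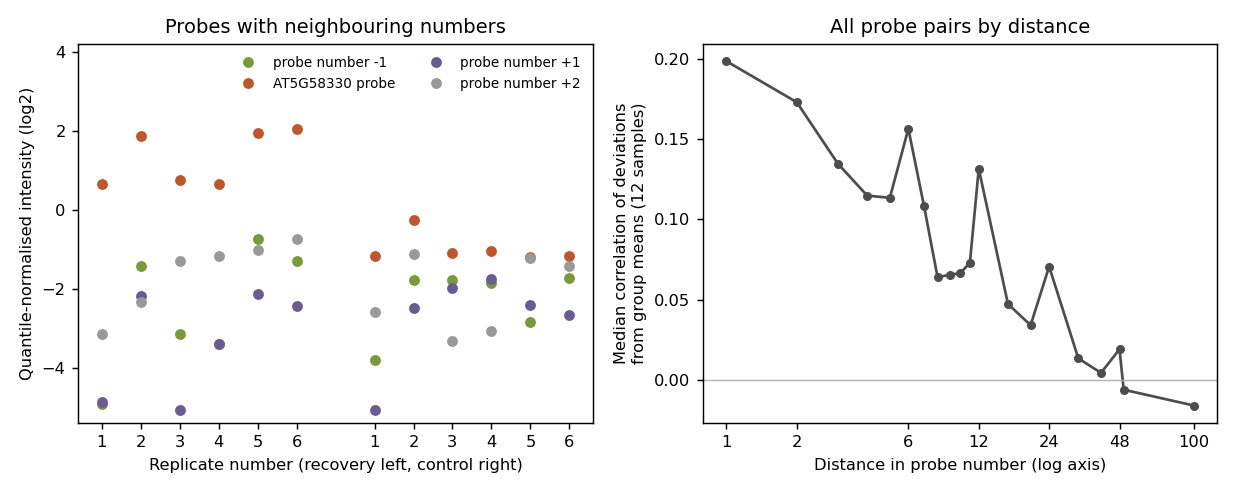
Left, log2 intensity of the AT5G58330 probe and of the probes numbered 1 below, 1 above and 2 above it in the 6 recovery and 6 control samples. Right, median correlation of deviations from the group means between all probes a given distance apart in number (log axis), which is 0.198 at a distance of 1 and -0.016 at 100, with local peaks at 6, 12, 24 and 48.

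Genes whose level over the 12 samples was most like that of AT5G58330 were sought among those with a probe of their own. Because these genes follow a gene that was chosen for its contrast, their likeness and differences are a description. AT3G13150, a pentatricopeptide repeat gene, was nearest with a Pearson correlation of 0.92. AT4G39760 followed with 0.89, the chromatin remodeller gene chr31 (AT1G05490) with 0.88, CCL with 0.88, AT5G38360 with 0.87 and AT1G67800 with 0.87. Their log2 differences, recovery minus control, were 1.56, 1.26, 0.99, 1.89, 1.56 and 1.23 in the same order. AT5G38360 had 4 of 6 control values at the floor, which leaves the size of its difference undefined.

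This likeness lay mostly in the step between the groups. With the group means removed, the 6 genes correlated with AT5G58330 at 0.09 to 0.60, CCL lowest and AT5G38360 highest. The genes most like it within groups were others. They were AT3G59980 with 0.80, AT5G15390 with 0.78 and AT1G22850 with 0.77. Their log2 differences between the groups were -0.19, 0.88 and 0.05.

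CCL, whose transcript the circadian clock is known to regulate, shows how a similar step can come with another order of samples. Its deposited intensity was 6.02, 7.38, 12.2, 10.8, 8.68 and 9.30 in recovery samples 1 to 6. It was 3.15, 3.68, 2.68, 3.22, 1.31 and 1.74 in control samples 1 to 6. CCL was highest in recovery samples 3 and 4, where AT5G58330 was low on the deposited and the log2 scale. Divided by the column median, AT5G58330 had 8.12 and 7.64 there, against 3.66 to 9.35 over all recovery samples, and was not low. AT3G13150 had 2.57, 2.73, 1.72, 1.67, 2.52 and 2.77 in recovery samples 1 to 6 and 1.18, 1.19, 0.448, 0.499, 0.591 and 0.652 in control samples 1 to 6. Like AT5G58330, AT3G13150 was lower in recovery samples 3 and 4 than in 5 and 6 on the deposited and the log2 scale. The column medians were 0.197 and 0.196 in recovery samples 3 and 4, against 0.426 and 0.428 in 5 and 6. Divided by them, AT3G13150 stood higher in recovery samples 3 and 4 than in 5 and 6. Unlike AT5G58330, AT3G13150 showed no step between samples 1 and 2.

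The other genes of the malate valve and of the systems around it were read from 12 lists of 178 loci. Of these, 11 had a probe of their own, AT5G58330 included. It was the 1 malate dehydrogenase of 9 with such a probe, and another shares a probe with a different gene and is not reported. None of the 9 loci for malate and redox transport, the 11 for malic enzymes and phosphoenolpyruvate carboxylases, the 13 for alternative electron sinks and the 20 for photorespiration had one, so the rest of the valve was not analysed here. The 18 loci of light stress response had none either. Of the 10 other genes, 1 passed the limma test at an adjusted p under 0.05 over all features and was higher in recovery, and 0 were lower (3 had an unadjusted p under 0.05). Of all 3438 features 3.03% passed, and the gene that passed, CCL, was known from earlier results of these data. The median log2 difference of the 10 genes was 0.04, against -0.02 over all features.

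In the list of the thioredoxin system, 2 of 25 loci had their own probe and neither passed the test. AT2G04700, the catalytic subunit of ferredoxin-thioredoxin reductase, had a deposited intensity of 0.448, 0.453, 0.393, 0.383, 0.731 and 0.568 in recovery samples 1 to 6. In control samples 1 to 6 it was 0.457, 0.433, 0.430, 0.433, 0.268 and 0.244. On this deposited scale the groups overlapped in samples 1 to 4, while recovery samples 5 and 6 were high and control samples 5 and 6 low. Its log2 difference was -0.08 with a standard error of 0.22 (limma, adjusted p = 0.884), and on that normalised scale it was -0.65, 0.01 and 0.40 by pair. NTRC (AT2G41680), the NADPH-dependent thioredoxin reductase of the chloroplast, had 0.132, 0.660 and 0.905 as its lowest, median and highest value in recovery samples and 0.131, 0.390 and 0.632 in control samples. Its log2 difference was 0.06 with a standard error of 0.40 (limma, adjusted p = 0.962), and by pair it was 0.21, -1.58 and 1.54.

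Of the 18 loci listed as thioredoxin-regulated enzymes, 3 had their own probe and 0 passed the test. PRK (AT1G32060), the phosphoribulokinase of the Calvin-Benson cycle, had a deposited intensity of 1.18, 1.43 and 1.59 as its lowest, median and highest value in recovery samples, against 1.51, 2.14 and 2.69 in control samples. Its log2 difference was -0.67 with a standard error of 0.20 (limma, adjusted p = 0.0963), and without control sample 1 it passed (adjusted p = 0.0482). In 25 other alternatives PRK did not pass, and in limma with the pairs as a random block its adjusted p was 0.416. SBPASE (AT3G55800), the sedoheptulose bisphosphatase of the same cycle, had a log2 difference of 0.06 with a standard error of 0.78, and control sample 6 stood far below the other controls. PPDK (AT4G15530), the pyruvate orthophosphate dikinase, had one of -0.08 with a standard error of 0.34. PPDK is known for control by phosphorylation and is the least typical member of that list. The direction of SBPASE, PPDK, NTRC and AT2G04700 changed with the scaling.

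**Figure D5:**
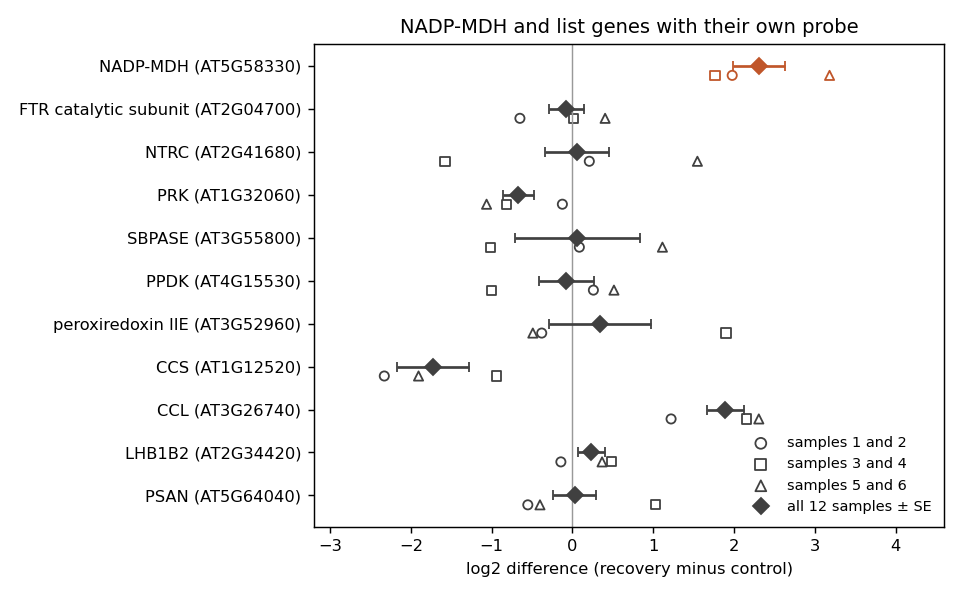
Log2 difference, recovery minus control, of AT5G58330 and of the 10 list genes with their own probe; diamonds are all 12 samples with the standard error (limma for the list genes, from the group SDs for AT5G58330), and open symbols are the 3 pairs of samples. The standard errors treat all 12 samples as independent. AT5G58330 stands at 2.31, CCL at 1.89 and CCS at -1.72, and the pairs disagree in sign for 7 genes.

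The lists of other systems held few measured genes. Of 22 antioxidant loci, 2 had their own probe and 0 passed. CCS (AT1G12520), the copper chaperone of superoxide dismutase, had a log2 difference of -1.72 with a standard error of 0.45 (limma, adjusted p = 0.0612), with 3 of 6 recovery values at the floor. Without recovery sample 4 it passed (limma, adjusted p = 0.0123), as it did without samples 3 and 4 of both groups (adjusted p = 0.00269). The fit without samples 3 and 4 called 416 of 3438 features. In 24 other alternatives CCS did not pass. Its adjusted p was 0.325 in limma with the pairs as a random block and 0.213 on the deposited values. AT3G52960, a chloroplast peroxiredoxin, had a log2 difference of 0.34 with a standard error of 0.63. Among 14 clock loci, CCL was the 1 with a probe. Its log2 difference was 1.89 with a standard error of 0.23 (limma, adjusted p = 0.0030), higher for 6 of 6 replicate numbers. With the replicate number as a block, a fit in which 3.08% of features passed, the adjusted p was 0.0177. With the pairs as a random block, where 0.0873% passed, it was 0.0473. The call was lost after median centring (adjusted p = 0.129), without samples 5 and 6 of both groups (adjusted p = 0.0520) and with the pairs averaged, a fit that called no feature (adjusted p = 0.62501).

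Markers of green tissue were bright in both groups. LHB1B2 (AT2G34420), a light-harvesting protein of photosystem II, had 13.3, 18.2 and 19.0 as its lowest, median and highest deposited intensity in recovery samples and 14.6, 16.8 and 20.1 in control samples. PSAN (AT5G64040), a subunit of photosystem I, had 4.76, 6.24 and 11.5 in recovery samples and 4.79, 7.76 and 9.16 in control samples. Neither of these 2 measured markers of 15 passed the test, with log2 differences of 0.23 and 0.03 whose signs changed with the scaling. None of the 5 root markers had a probe of its own.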

How the data were processed

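The deposited values are intensities of 12 arrays in the series' value table, on a linear scale from 0 to 100; scanner, background correction and scaling are not given in the sources used. Group and replicate number came from the sample titles. Of 3439 probes, the platform annotation assigns 692 to 1 gene and 870 to several, and 1877 are unnamed here; 690 of the 692 were found in the RefSeq gene table (TAIR10.1), used for names and gene order alone. Linear values were quantile-normalised, raised to a floor at the 5th percentile of positive values (0.0298) and put on the log2 scale (limma 3.58.1, R 4.3.3). The 1 gene with 2 probes was averaged, giving 3438 features.

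The 2 groups were tested with limma (lmFit, eBayes) over all 12 samples with no covariate and Benjamini-Hochberg adjustment over all features; the fit was tested on simulated data. All features entered it, and no test of the difference is given for AT5G58330. The genes named are AT5G58330, list genes with their own probe, the 6 single genes with the highest correlation over 12 samples, the 3 with the highest within groups, and named neighbours in the order of differences. The gene, the lists and the rules were chosen with earlier results of these data known. The probes with neighbouring numbers and the exclusion of samples numbered 2 were added after the values were seen. Alternatives covered normalisation, floor, dim features, samples, pairs and variance moderation.

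The pairing of replicate numbers was checked on deviations from the group means. Between recovery and control samples of the same number they correlated at 0.110 to 0.462. With the other number of the same pair they correlated at 0.081 to 0.168, and between samples of other pairs at -0.229 to 0.008. The replicate block therefore treats numbers as pairing samples, though no label says so and the main fit does not use them. Within samples 3 and 4 the own and the other number hardly differ.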

Additional observations from a re-analysis of the deposited data

Results flagged for a closer look

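In 40 groups of 6 samples, those of the 20 genes named, each highest and lowest sample was compared with the rest by its gap to the nearest sample divided by the whole range, against Dixon's critical value at 95%. Chance gives about 1 in 20 for independent values, samples of a pair are not independent, and 4 stood out. For AT5G58330, control sample 2 stood above the other controls with a gap share of 0.826, which describes values on which the gene was chosen and is no test. For SBPASE (AT3G55800), control sample 6 stood below the others with 0.811. For AT5G38360, recovery sample 4 stood low with 0.635 and control sample 4 high with 0.643, where values at the floor set the range.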

How the results depend on the processing

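The log2 difference of AT5G58330 stayed within 1 SD of its value of 2.31 under all alternatives run, from 1.87 without samples 5 and 6 to 2.58 without samples 3 and 4. It was 2.52 on the deposited values, which moved the median over all features to 0.43, 1.97 after median centring (median -0.13), 2.33 with cyclic loess, 2.10 with a pseudocount of 0.1 and 2.55 as the ratio of mean deposited values. Leaving out 1 sample at a time gave 2.16 to 2.45. With the replicate block, the pairs averaged and the pairs as a random block the difference is 2.31 by construction. The floor at the 1st percentile and the exclusion of dim features could not change it either, since the gene had no value at the floor. No label says that the numbers pair the samples. With the replicate block, which treats them so, 106 features passed instead of 104, of which 58 were among the 104. CCL remained the 1 list gene called. The replicate block changed the call of AT5G38360 (adjusted p = 0.0898) and of no other gene named. With the pairs as a random block, CCL kept its call, but AT3G13150, AT4G39760, chr31, AT5G38360 and AT1G67800 lost theirs. Their adjusted p in that limma fit ran from 0.0586 for AT3G13150 to 0.421 for AT5G38360. Features called numbered 65 after median centring, 60 with cyclic loess, 69 without dim features, 28, 416 and 10 without samples 1 and 2, 3 and 4, and 5 and 6, 27 without samples numbered 2, 3 with the pairs as a random block and 0 in limma with pairs averaged (203 at an unadjusted p under 0.05); leaving out 1 sample gave 42 to 93, the fewest without recovery sample 5, and counts more than 1.5 times below 104 without each of recovery samples 1, 2, 5 and 6 and control samples 3, 4, 5 and 6. Of the calls 41 were higher and 63 lower, against 79 and 30 on the deposited values and 14 and 51 after median centring. List genes called numbered 0 after median centring, without samples 5 and 6 and with averaged pairs, 2 (CCL and CCS) without samples 3 and 4, and 1 to 2 with 1 sample left out, where CCS passed without recovery sample 4 and PRK without control sample 1. The median likeness of the 6 nearest genes, 0.878, was 0.7895 after median centring, 0.833 by Spearman's rank, 0.915 without samples 3 and 4, and 0.460 on deviations from the group means. The cause of these shifts was not tested.

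Signs turned for genes near 0 that were not called. On the deposited values, AT2G04700 had 0.40, PPDK 0.26, PSAN -0.073 and AT3G59980 0.40. After median centring, NTRC had -0.17, SBPASE -0.25, LHB1B2 -0.53, PSAN -0.63 and AT1G22850 -0.23. With cyclic loess, AT2G04700 had 0.019, NTRC -0.022, SBPASE -0.0732, PSAN -0.0724 and AT1G22850 -0.030, and with the pseudocount SBPASE had -0.046. Without samples 1 and 2, AT2G04700 had 0.21 and NTRC -0.016, and without samples numbered 2, AT2G04700 had 0.024. Without samples 3 and 4, PPDK had 0.39, AT3G52960 -0.44, PSAN -0.48 and AT3G59980 0.44. Without samples 5 and 6, NTRC had -0.68, SBPASE -0.46 and AT1G22850 -0.47. With 1 sample left out, AT2G04700 ran from -0.16 to 0.030, NTRC from -0.14 to 0.26, SBPASE from -0.62 to 0.45, PPDK from -0.28 to 0.13, PSAN from -0.12 to 0.13, AT3G59980 from -0.55 to 0.29 and AT1G22850 from -0.12 to 0.30.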

Other observations

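The likeness of probes with nearby numbers did not fall evenly with distance. The median correlation of deviations from the group means was 0.113 at a distance of 5, 0.156 at 6 and 0.108 at 7. It was 0.0729 at 11 and 0.131 at 12, and 0.0340 at 20, 0.0705 at 24 and 0.0133 at 32. It was 0.00434 at 40, 0.0190 at 48 and -0.00616 at 50. These values are over 2447 to 2802 probe pairs per distance and carry no test.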
